A study of Mus musculus with 8 samples.

Results

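Coenzyme Q (ubiquinone) biosynthesis genes were followed in mouse adipose tissue RNA after cold exposure. The members were chosen by gene symbol: Pdss1, Coq2, Coq3, Coq4, Coq5, Coq6, Coq7, Coq8a, Coq8b and Coq9, 10 of the 18395 genes in the count table, and all 10 passed the filter on low counts. The series holds 4 libraries labelled KO, from mice in which Kindlin-2 (gene Fermt2) was knocked out in brown adipocytes, and 4 labelled WT, from control mice. Mice of both groups had spent 6 hours at 4 °C. Kindlin-2 is a focal adhesion adaptor that helps to activate integrins. The labels name adipose tissue without a depot, and the sources used here give no Cre driver, age or animal behind each library. The p-values below therefore rest on the spread among these libraries, which may be technical.

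Coenzyme Q is a lipid of the inner mitochondrial membrane that carries electrons to respiratory complex III. Its tail is a chain of isoprene units from the mevalonate pathway and its head is a benzene ring derived from tyrosine. A membrane enzyme joins these parts, and most of the enzymes that then modify the ring sit together in a complex on the matrix side of the membrane. In brown fat the electrons that feed heat production by the uncoupling protein Ucp1 pass through this quinone.

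Library totals ranged from 35734373 to 40927141 counts in KO and from 33672272 to 43253559 in WT. Fermt2, the targeted gene, had 192, 132, 173 and 174 CPM (counts relative to library size, with the size adjusted by TMM factors) in KO replicates 1 to 4, against 239, 235, 244 and 201 CPM in WT. Every KO value was below every WT value, and the log2 fold change (KO minus WT) of -0.45 ± 0.14 (SE) missed the threshold over all genes (edgeR adjusted p = 0.134). This lack of overlap is for TMM-scaled CPM. Scaled by total library size only, the log2 fold change of Fermt2 was -0.188 (edgeR adjusted p = 0.374). Ucp1, which marks brown fat, was present in all 8 libraries, at 1792 to 4301 CPM in KO and 5082 to 6576 CPM in WT. A pair of libraries stood apart. WT replicate 3 carried skeletal muscle transcripts: the 12 genes of that list took 3.77% of its counts and at most 0.0267% elsewhere, with Myh7 at 0 in 6 of the other libraries. KO replicate 2 carried interferon response transcripts, at 0.343% of its counts for 10 genes, against at most 0.033% elsewhere. Results are therefore also given for the 6 libraries without these, called the 6-library comparison.

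Coq9, Coq3 and Coq6 had the largest fitted differences among the members, and all 3 had lower means in KO than in WT. Coq7 alone had a higher mean in KO. None of the 10 differences passed the test over all genes. With edgeR's quasi-likelihood test, 0 of 10 members had an adjusted p under 0.05, as did 0% of the 13901 genes tested in that direction. At an unadjusted p under 0.05 the count was 4 of 10, all lower in KO (Coq3, Coq5, Coq6 and Coq9), against 11.1% of all genes lower and 10.4% higher. By sign alone 9 of 10 had a negative log2 fold change, against 49.5% of all genes, and 1 of 10 had a positive one, against 50.5%, with a median of -0.29 for the members and 0.004 for all genes tested. DESeq2 called 2 members, both lower: Coq9 (adjusted p = 0.000531) and Coq3 (adjusted p = 0.0134), where it called 3.31% of 18189 genes with any count as lower. Limma-voom called 0, and with sample quality weights it called 3, Coq3, Coq6 and Coq9 (adjusted p = 0.0371, 0.047 and 0.0275), against 3.62% of all genes lower. In the 6-library comparison edgeR again called 0 of 10, against 1.5% of genes called lower and 1.82% higher, and 4 had an unadjusted p under 0.05 (Coq3, Coq6, Coq8b and Coq9), against 11.4% lower among all genes. There 9 of 10 log2 fold changes were negative, against 48.9% of all genes, with a median of -0.39. DESeq2 on the 6 libraries called Coq6 and Coq9 (adjusted p = 0.00476 and 0.00198), against 4.36% of 17740 genes with any count called lower.

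**Figure D1:**
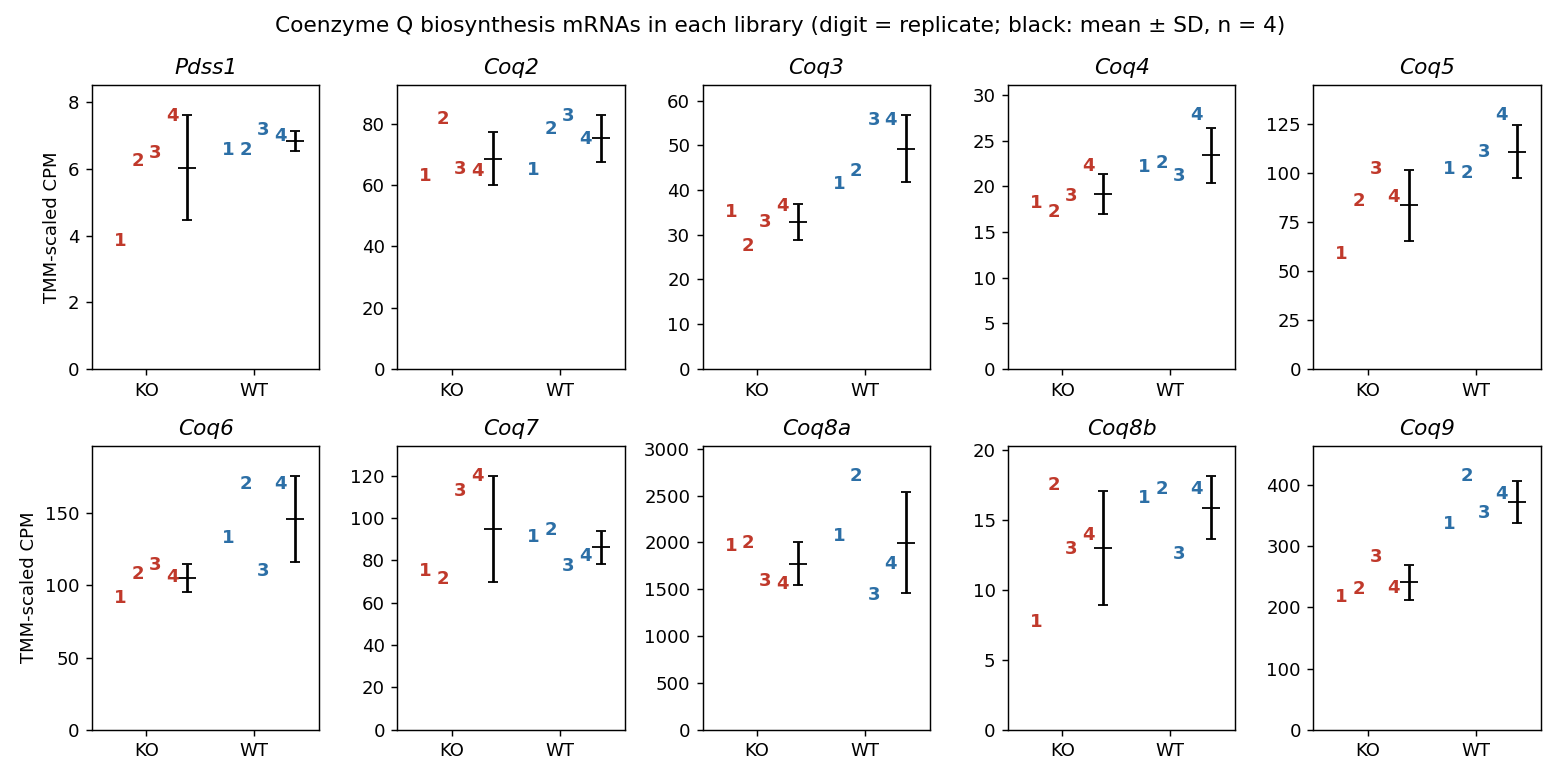
TMM-scaled CPM (y axes, each from 0) of the 10 genes in KO and WT libraries, drawn as replicate digits, with the mean ± SD (n = 4) in black. The groups do not overlap for Coq3 and Coq9, KO replicate 1 is lowest of all 8 for Pdss1, Coq2, Coq5, Coq6, Coq8b and Coq9, and Coq8a has the widest WT spread, from 1437 to 2709 CPM.

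The tail is made by an enzyme built of Pdss1 and Pdss2. Pdss1 had 3.85, 6.23, 6.47 and 7.59 CPM in KO replicates 1 to 4, against 6.57, 6.58, 7.17 and 6.98 CPM in WT. KO replicate 1 was far below the rest, and KO replicate 4 lay above every WT library. The log2 fold change was -0.18 ± 0.22 (edgeR adjusted p = 0.646), and -0.0166 without KO replicate 1. Coq2, the membrane enzyme that joins the tail to the ring precursor, had 62.9, 81.7, 65.4 and 64.8 CPM in KO and 64.9, 78.5, 82.6 and 75.1 CPM in WT. KO replicate 2 sat with the 3 higher WT libraries and the other KO libraries with WT replicate 1, giving -0.13 ± 0.12 (adjusted p = 0.546), and -0.2261 without KO replicate 2 or -0.0867 without WT replicate 3.

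Among the ring-modifying enzymes, Coq3, an O-methyltransferase, had 35.1, 27.4, 32.8 and 36.4 CPM in KO, against 41.4, 44.3, 55.7 and 55.6 CPM in WT. The groups did not overlap, and Coq3 was one of 2 members of which this held with all KO below all WT, against 7.56% of all genes, while 0 members had all KO above all WT, against 5.8%. Its log2 fold change was -0.58 ± 0.14 with 8 libraries (edgeR adjusted p = 0.103) and -0.44 ± 0.14 with 6 (adjusted p = 0.102). The lack of overlap is for TMM-scaled CPM, and the TMM factors differed between the groups. Scaled by total library size only, the log2 fold change of Coq3 was -0.3179 with 8 libraries (edgeR adjusted p = 0.153). Coq6, a flavin-dependent monooxygenase that hydroxylates the ring, had 91.1, 108, 114 and 106 CPM in KO, against 133, 170.3, 109.9 and 170 CPM in WT. WT replicate 3 alone lay among the KO libraries. The log2 fold change of Coq6 was -0.48 ± 0.16 with 8 libraries (adjusted p = 0.154) and -0.61 ± 0.14 with 6 (adjusted p = 0.0537).

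Coq5, a C-methyltransferase, had 58.9, 85.6, 102 and 87.7 CPM in KO, against 102, 100.1, 111 and 129.6 CPM in WT. KO replicate 3 reached the lower WT libraries and the other KO libraries lay below all of them (-0.40 ± 0.17, adjusted p = 0.213). Coq7, the di-iron hydroxylase of the penultimate step, had 75.1, 71.3, 113 and 119.8 CPM in KO and 91.0, 94.3, 77.2 and 82.1 CPM in WT. The KO libraries split to both sides of WT, with replicates 1 and 2 below all WT libraries and replicates 3 and 4 above all of them. The mean was 94.7 ± 25 CPM in KO and 86.2 ± 7.86 CPM in WT (SD, n = 4), and the log2 fold change was 0.14 ± 0.18 (adjusted p = 0.684), and 0.0021 without KO replicate 4.

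Coq9 is a lipid-binding protein that partners Coq7 and is needed for its function. It had 217, 231, 283 and 232 CPM in KO, against 337, 415, 355 and 385 CPM in WT. The highest KO library lay below the lowest WT library. The means were 241 ± 29.0 CPM in KO and 373 ± 34.2 CPM in WT (SD, n = 4), a KO level 0.646 times that of WT. Of the members it had the smallest p, with a log2 fold change of -0.63 ± 0.12 (edgeR adjusted p = 0.0915), and it was the member under an adjusted p of 0.10, where 1.09% of all genes lay lower. The value was -0.63 ± 0.15 in the 6-library comparison (adjusted p = 0.0504), and with 1 more library left out it ranged from -0.7627 to -0.559 (adjusted p from 0.0399, without KO replicate 3, to 0.216, without KO replicate 4). Scaled by total library size only, the log2 fold change of Coq9 was smaller, at -0.3771 with 8 libraries (edgeR adjusted p = 0.0805).

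Coq4, needed for the stability of the biosynthetic complex, had 18.2, 17.2, 19.0 and 22.3 CPM in KO and 22.1, 22.6, 21.2 and 27.8 CPM in WT. KO replicate 4 reached the WT range and the other KO libraries lay below it (-0.29 ± 0.13, adjusted p = 0.239). Coq8a and Coq8b are paralogous members of an atypical kinase-like family with ATPase activity that supports the complex. Coq8a had 1962, 1990, 1593 and 1556 CPM in KO and 2066, 2709, 1437 and 1771 CPM in WT. Every KO library lay inside the WT range, and the log2 fold change was -0.17 ± 0.20 with 8 libraries (adjusted p = 0.635), -0.36 ± 0.19 with 6 (adjusted p = 0.287) and 0.0135 without WT replicate 2. Coq8b had 7.74, 17.5, 12.9 and 13.9 CPM in KO and 16.6, 17.2, 12.6 and 17.2 CPM in WT. Its groups overlapped through KO replicate 2 and WT replicate 3, which were the outlying libraries. The log2 fold change of Coq8b was -0.29 ± 0.23 with 8 libraries (adjusted p = 0.484) and -0.56 ± 0.21 with 6 (adjusted p = 0.158). Without KO replicate 1, its lowest library, it was -0.1076 among the 8 and -0.3441 among the 6. In the 6-library comparison the KO libraries lay below all WT libraries for 4 members, Coq3, Coq6, Coq8b and Coq9, against 15.3% of all genes.

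**Figure D2:**
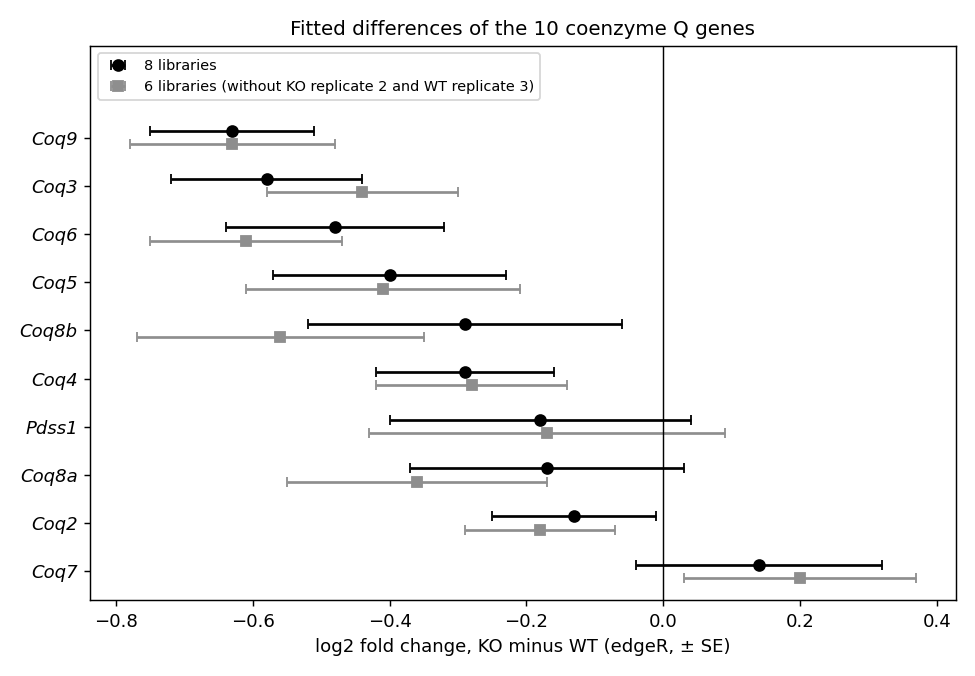
Log2 fold change (x axis, KO minus WT, edgeR, ± SE) of each gene with 8 libraries (circles) and with 6 (squares). Coq9 keeps -0.63 in both fits, Coq8b moves from -0.29 to -0.56, and Coq7 is the only gene with a positive value in both.

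The bases upstream of Coq9, Coq3 and Coq6, the 3 members with the smallest p, are shown to give the sequence around which their transcripts start. They are the 250 bases before a RefSeq start site in build GRCm38.p6, a different build from the GRCm39 of the counts, all on the plus strand. Capitals mark CCAAT or its reverse complement ATTGG, the letters of the NF-Y box, which were searched after the sequences had been seen.
Coq9, chr8:94838163-94838412: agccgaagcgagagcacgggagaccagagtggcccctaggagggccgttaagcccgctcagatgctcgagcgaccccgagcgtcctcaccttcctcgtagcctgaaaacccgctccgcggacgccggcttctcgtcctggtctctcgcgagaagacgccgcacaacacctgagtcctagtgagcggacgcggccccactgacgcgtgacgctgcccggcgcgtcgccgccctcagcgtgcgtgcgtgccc
Coq3, chr4:21879396-21879645: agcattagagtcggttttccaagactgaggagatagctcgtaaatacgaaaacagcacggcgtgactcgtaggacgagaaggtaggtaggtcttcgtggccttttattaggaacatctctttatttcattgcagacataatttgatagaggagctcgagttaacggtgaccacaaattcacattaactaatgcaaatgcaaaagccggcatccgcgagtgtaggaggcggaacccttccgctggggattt
Coq6, chr12:84361718-84361967: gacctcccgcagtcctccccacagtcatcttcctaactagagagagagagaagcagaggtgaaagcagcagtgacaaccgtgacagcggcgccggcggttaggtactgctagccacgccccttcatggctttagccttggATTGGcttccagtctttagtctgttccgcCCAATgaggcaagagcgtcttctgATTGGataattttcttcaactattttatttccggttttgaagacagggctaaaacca

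RefSeq windows of 300 bases (250 before and 50 after a start site) were matched for 8 of the 10 members, as 10 windows. Searched on both strands were the NRF1 palindrome, TNAAGGTCA (ERR), CCGGAAG (ETS), AAGATGGCG (YY1) and CCAAT. The window of Coq9 held the YY1 letters 6 bases past the start site, a motif found in 1.4% of all 32851 windows. A second start site of Coq3 held the NRF1 motif on the minus strand, found in 4.6% of windows. Both sites are shown with the motif in capitals.
Coq9 YY1 site: gcccacttccAAGATGGCGgcgacagcag
Coq3 NRF1 site: gggcggctctGCGCAAGCGCggcagagagc
The ETS letters (8.86% of windows) were in Coq6 and Pdss1. CCAAT was in Coq6, Coq8a and Coq7, and 37.4% of windows hold at least 1 copy. Coq6 and 1 window of Coq8a held 3 copies each, which 3.37% of windows do. The ERR letters were in none of these windows and in 1.28% of all windows. A match describes letters only, and binding was not measured.

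Levels can be set against each other once divided by transcript length. By CPM per kilobase of the union of annotated exons, Coq8a stood far above the others, at 335 ± 43.9 in KO and 377 ± 102 in WT (SD, n = 4), which placed it at rank 117 in KO and 119 in WT among 13868 genes with a length. Coq9 followed at 78.9 ± 9.50 CPM per kilobase in KO and 122 ± 11.2 in WT, at rank 534 in KO and 412 in WT. Coq6, Coq5, Coq2, Coq3, Coq7 and Coq4 came after them in WT, and Coq8b and Pdss1 were lowest, at 2.33 ± 0.725 and 1.42 ± 0.370 CPM per kilobase in KO, against 2.85 ± 0.402 and 1.61 ± 0.0700 in WT. In WT the libraries of neighbours in this order overlapped for Coq6 with Coq5 and for Coq3 with Coq7, and not for the other 7 neighbouring pairs. In KO they overlapped for Coq6 with Coq5, Coq5 with Coq2, Coq7 with Coq3 and Coq8b with Pdss1. With the length of the principal transcript, the order was the same except for Coq7, which moved to the third place, at 104 ± 27.4 CPM per kilobase in KO and 94.3 ± 8.60 in WT, since its exon union is 6434 bases and its principal transcript 914.

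Coq8a alone made up 57.2% to 68.0% of the summed per-kilobase level of the 10 genes in KO libraries and 51.1% to 63.5% in WT libraries (46.0% to 58.4% and 42.2% to 54.4% with principal transcripts). It was 118 to 267 times its paralog Coq8b per kilobase in KO and 109 to 166 times in WT. The other 9 genes summed to 174, 199, 225 and 205 CPM per kilobase in KO replicates 1 to 4, against 249.7, 294, 260.1 and 296 in WT. These 9-gene sums did not overlap between groups and lean on Coq9, the most abundant of the 9. With Coq8a included, the sums of all 10 were 545, 575, 526 and 499 CPM per kilobase in KO. In WT they were 640.1, 805, 531 and 630.2, so the 10-gene sums overlapped between groups. Both kinds of sum rest on TMM-scaled counts, and how often sums of other genes separate was not computed.

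**Figure D3:**
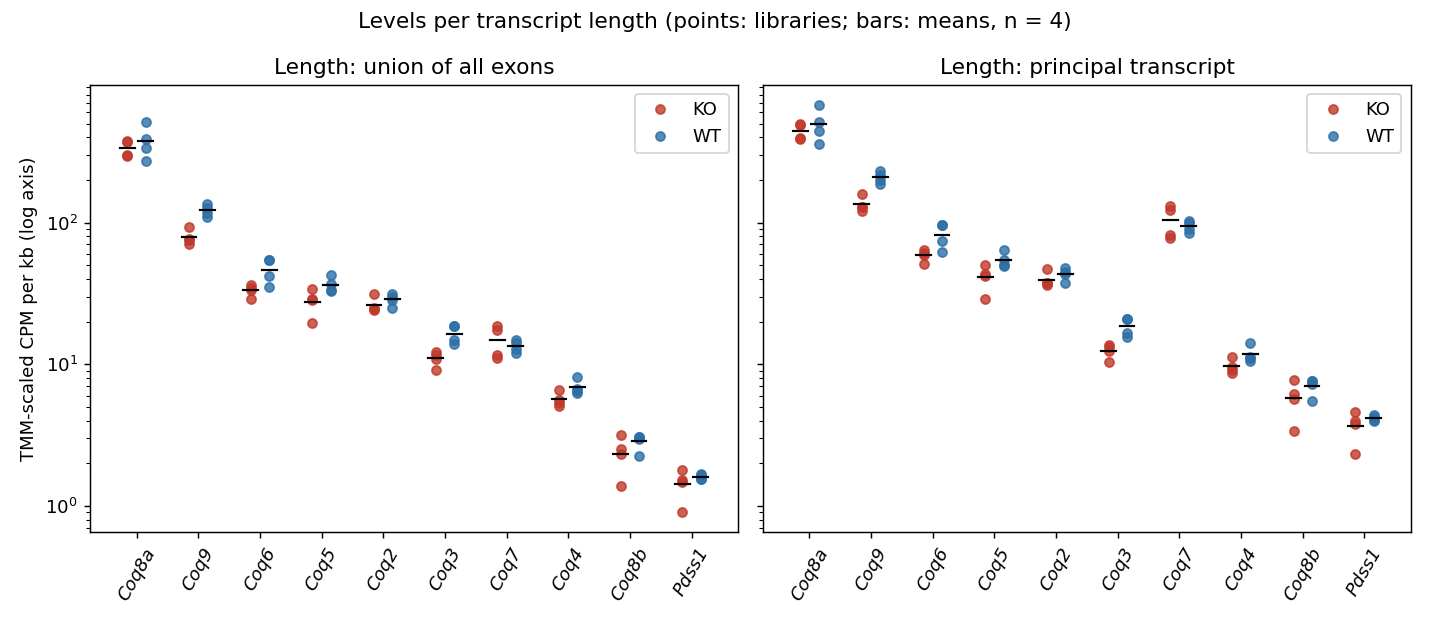
CPM per kilobase (log axis) of each gene in KO (red) and WT (blue) libraries, with bars at the means (n = 4), using the exon union (left) or the principal transcript (right) as length. Coq8a is the highest in both panels and Coq7 is the gene that changes place.

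Because TMM factors differed between the groups (1.05 to 1.15 in KO and 0.879 to 0.948 in WT), ratios of 2 members in the same library, which need no scaling, were compared as well. Of 45 pairs, 2 (4.44%) had ratios that did not overlap between groups, against 11.6% of all pairs of 13713 genes, so such pairs were no more frequent among the members. Both are given as descriptions. The log2 ratio of Coq7 counts to Coq9 counts was -1.53, -1.70, -1.33 and -0.95 in KO, against -1.89, -2.14, -2.20 and -2.23 in WT. The mean was higher by 0.73 in KO, in 4 of 4 libraries (two-sided exact permutation p = 0.0286, the smallest that 4 against 4 can give, and 0.428 adjusted over the 45 pairs). The log2 ratio of Coq2 to Coq3 was 0.84, 1.58, 1.00 and 0.83 in KO and 0.65, 0.83, 0.57 and 0.43 in WT, groups that all but touched (difference 0.44, exact permutation p = 0.0286, adjusted 0.428). Neither pair passed the adjustment.

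**Figure D4:**
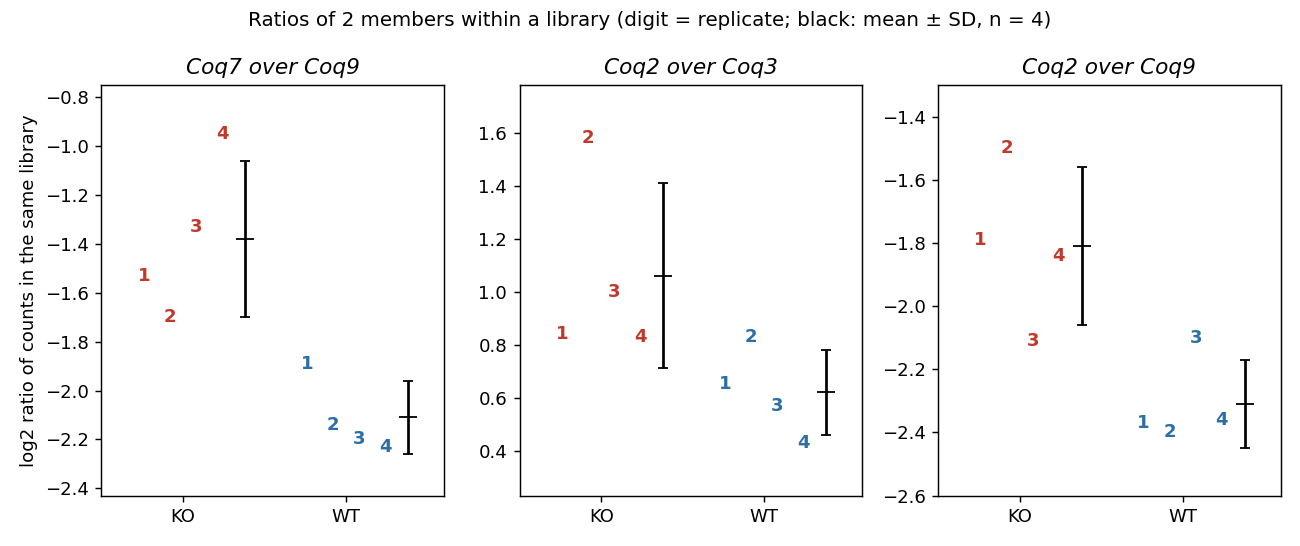
Log2 ratio of the counts of 2 members in the same library (y axes do not start at 0), drawn as replicate digits for KO and WT with the mean ± SD (n = 4). Coq7 over Coq9 is higher in all 4 KO libraries than in any WT library, while for Coq2 over Coq9 KO replicate 3 and WT replicate 3 lie at -2.11 and -2.10.

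EdgeR with 8 libraries called 0 genes in the lists of brown adipocyte, adipocyte, endothelial and immune markers, and their levels are given beside the members' values. The 10 brown adipocyte markers took 0.563% to 0.899% of counts in KO libraries and 0.76% to 1.01% in WT. Of these, 9 of 10 had a negative log2 fold change, with a median of -0.29, as the coenzyme Q members had. The 8 general adipocyte markers took 1.61% to 1.96% in KO and 1.56% to 2.07% in WT, with 7 of 8 negative and a median of -0.48. The 10 endothelial markers took 0.193% to 0.358% in KO and 0.129% to 0.182% in WT, with 9 of 10 positive and a median of 0.62. The 12 immune markers took 0.0152% to 0.0616% in KO and 0.00738% to 0.0116% in WT, with 12 of 12 positive and a median of 1.47. In the 6-library comparison 10 of these 12 were positive, with a median of 0.67, and 10 of 10 endothelial markers were positive, with a median of 0.66. EdgeR there called 5 of the 10 endothelial and 1 of the 12 immune markers higher, against 1.82% of all genes. It called 1 of the 10 brown adipocyte and 1 of the 8 adipocyte markers lower, against 1.5% of all genes. None of the genes in these 4 lists was at 0 in any library. Mitochondrially encoded transcripts took 15.1% to 18.2% of counts in KO and 19.9% to 25.6% in WT. In whole tissue, fewer cells of a type and less RNA per cell cannot be told apart. The part of these markers in the members' values was not tested.

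Dividing by the summed adipocyte markers of the same library, a comparison added after the data were seen, shifts every gene alike, so the members are given beside all genes. The median log2 difference was -0.01 for the members and 0.3 for 13713 genes without a 0 in any library, and 5 of 10 members were lower in KO, against 20.7% of these genes. Coq9 was lower by -0.33 on this scale, with all KO libraries below all WT libraries, as for 0.912% of these genes. Coq7 was higher by 0.40, with all KO libraries above all WT libraries, as for 18.9%. Fabp4 made up 50.4% to 61.2% of that sum. With the mean log2 level of the same 8 markers as the divisor, the median was 0.15 for the members and 0.46 for all these genes, and 3 of 10 members were lower, against 11.7%. There Coq9 differed by -0.18, with groups that overlapped.

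Other genes of the pathway were read from lists beside the members. Among 16 further coenzyme Q genes, 14 had a negative log2 fold change, with a median of -0.33, and edgeR called 0, with 7 at an unadjusted p under 0.05, all lower, against 11.1% of all genes. DESeq2 called 4 of these 16 lower, against 3.31% of 18189 genes with any count. Limma-voom with quality weights called 1, against 3.62% of the 13901 genes that passed the filter. Coq10a, a lipid-binding chaperone of the quinone, had 157, 152, 181 and 195 CPM in KO, against 214, 232, 326 and 239.5 CPM in WT. Its groups did not overlap and its highest library was WT replicate 3, the library with muscle transcripts (-0.56 ± 0.16, edgeR adjusted p = 0.122, and -0.36 ± 0.13 with 6 libraries). Pptc7, a mitochondrial phosphatase, differed by -0.77 ± 0.23 (adjusted p = 0.134). Yme1l1, an inner membrane protease, differed by -0.28 ± 0.09 (adjusted p = 0.151). All its KO libraries (64.6 to 73.4 CPM) lay below all its WT libraries (81.7 to 85.3 CPM) with TMM scaling, as for 7.56% of all genes. Scaled by total library size only, Yme1l1 differed by -0.0183 (edgeR adjusted p = 0.912) and Coq10a by -0.2991 (adjusted p = 0.175). Stard7, a lipid transfer protein implicated in moving coenzyme Q out of mitochondria, averaged 128 ± 19.8 CPM in KO and 175 ± 26.7 CPM in WT (SD, n = 4; -0.46 ± 0.15, adjusted p = 0.154). Pdss2, the partner of Pdss1, averaged 11 ± 1.79 CPM in KO and 14.3 ± 2.42 CPM in WT (-0.38 ± 0.17, adjusted p = 0.238), and is named here outside the rule for naming genes.

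The 9 genes of the mevalonate pathway, which supplies the isoprene units, had a median of -0.16, with 7 negative and 2 positive. EdgeR called 0 of them, and 1, Acat2, had an unadjusted p under 0.05. Acat2, which makes acetoacetyl-CoA in the cytosol, averaged 105 ± 15.3 CPM in KO and 138 ± 22.2 CPM in WT (-0.39 ± 0.15, adjusted p = 0.196). Mvd, the decarboxylase that yields isopentenyl diphosphate, had 4.29 to 6.17 CPM in KO and 3.27 to 5.32 CPM in WT (0.41 ± 0.22, adjusted p = 0.305). Idi1, the isomerase of that product, and Ggps1, which makes geranylgeranyl diphosphate, differed by -0.66 ± 0.47 and -0.16 ± 0.10 (adjusted p = 0.41 and 0.361).

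The enzymes that reduce or oxidise the quinone formed the longest list. Of 22 genes, 21 had a negative log2 fold change, with a median of -0.37, and 12 had an unadjusted p under 0.05, all lower, against 11.1% of all genes, while edgeR called 0 with 8 libraries. It called 0 to 3 of the 22 with 1 library left out. The 3, all lower, came without KO replicate 2, where 123 of all genes tested were called lower. With total library size as the scaling it called 2 lower, Etfdh (adjusted p = 0.0394) and mt-Cytb (adjusted p = 0.0449), where 24 of all genes tested were called lower. DESeq2 and limma-voom with quality weights each called 7 of the 22, all lower. The shares called lower were 3.31% of 18189 genes with any count for DESeq2 and 3.62% of the 13901 genes that passed the filter for limma-voom. Etfdh, the link between fatty acid oxidation and the quinone pool, had 313, 337, 424 and 351 CPM in KO, against 638, 695, 569.6 and 702 CPM in WT. The groups were far apart (-0.87 ± 0.13, adjusted p = 0.0874). In the 6-library comparison 19 of the 22 had a negative log2 fold change, against 48.9% of all genes. EdgeR called 4 of the 22 lower there, against 1.5% of all genes. The 4 were Etfdh (adjusted p = 0.0289), the complex III core subunit Uqcrc2 (-0.97 ± 0.17, adjusted p = 0.0334), choline dehydrogenase Chdh (-0.96 ± 0.17, adjusted p = 0.0331) and the sulfide oxidase Sqor (-0.55 ± 0.13, adjusted p = 0.0481). Sqor was named after its value was seen. None of the 4 kept an adjusted p under 0.05 when KO replicate 4, WT replicate 1, WT replicate 2 or WT replicate 4 was left out of the 6 as well, and 3 of them did without KO replicate 1 or KO replicate 3. The mitochondrially encoded cytochrome b, mt-Cytb, averaged 29868 ± 3370.3 CPM in KO and 50595 ± 4184 CPM in WT (SD, n = 4; -0.76 ± 0.13, adjusted p = 0.0915). The small complex III subunits Uqcrq, Uqcrh, Uqcr10 and Uqcr11 lay between -0.03 and 0.01, and are named after their values were seen.

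**Figure D5:**
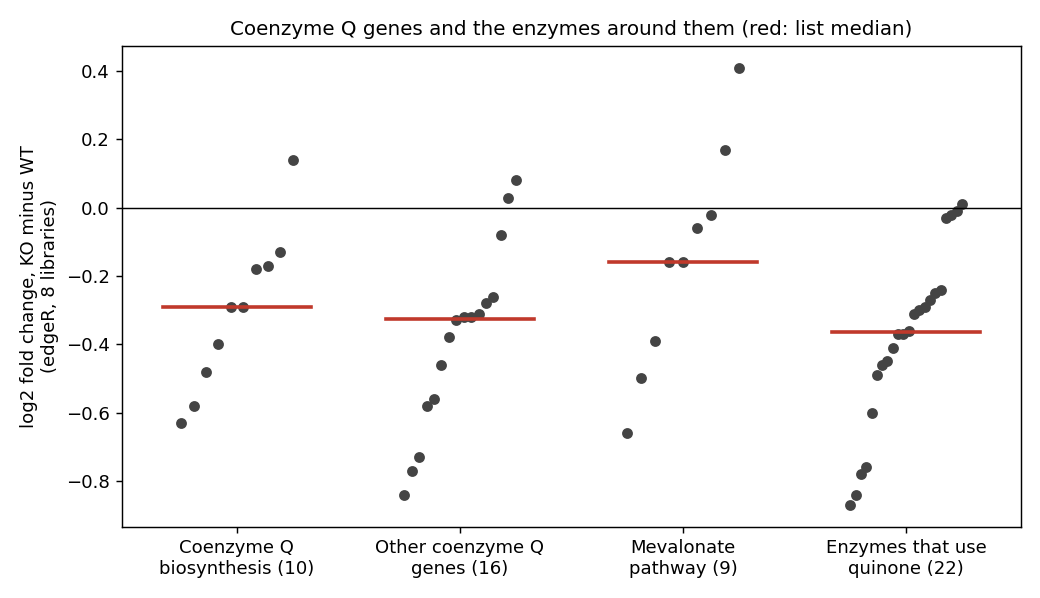
Log2 fold change (y axis, KO minus WT, edgeR, 8 libraries) of each gene in 4 lists, sorted within the list, with the list median as a red bar. The medians are -0.29 for biosynthesis, -0.33 for other coenzyme Q genes, -0.16 for the mevalonate pathway and -0.37 for enzymes that use the quinone.

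The members' shared pattern was described by the mean of their standardised log2 CPM in each library. It was -1.23, -0.38, -0.22 and -0.13 in KO replicates 1 to 4 and 0.22, 0.78, 0.17 and 0.79 in WT. KO replicate 1 was lowest, and the groups did not overlap. The means use TMM-scaled levels, and how often sets of other genes separate the groups was not computed. Members did not all share the mean pattern: over the 8 libraries Pearson's r between members ranged from -0.52 for Coq2 with Coq7 to 0.86 for Coq6 with Coq9. Of 8542 other genes with a mean of at least 10 CPM, the 5 most like the mean pattern were Rnf187 (Pearson's r = 0.985), Fahd2a (0.981), Josd1 (0.98), Stoml2 (0.979) and Mtx2 (0.979). The points share the 2 groups and the library scaling, so these values are descriptions over 8 libraries. Without the 2 libraries farthest from the median, r was between 0.93 and 0.977.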

How the data were processed

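Libraries were made from poly(A) RNA with a dUTP second strand, as the labels' protocols state. The authors deposited whole-number counts per gene and library. The build is GRCm39 per the submitters' processing notes. The sources used here name no aligner, counter or annotation. Symbols and lengths came from GENCODE M21 by gene ID (18321 of 18395 genes had a symbol), and promoters from RefSeq GRCm38.p6. Fdx2 was matched by its older symbol.

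Genes were kept by filterByExpr (13901), scaled by TMM and tested by edgeR 4.0.16 in R 4.3.3 (robust quasi-likelihood F test, group as the only term), with Benjamini-Hochberg adjustment over all genes and a threshold of 0.05. Standard errors came from the fold change and the F statistic, and log2 CPM used a prior count of 2. Alternatives used DESeq2 1.42.0, limma 3.58.1, other scalings, filters and library sets.

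The members, lists and the 6-library set were chosen with earlier results of these data known. Named genes were all members, Fermt2, Ucp1 and the 4 genes of each other pathway list with the smallest p. Figures used matplotlib 3.10.9.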

Additional observations from a re-analysis of the deposited data

Results flagged for a closer look

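In 48 groups of 4 libraries (24 named genes in KO and in WT), 2 had a library whose gap to the nearest other exceeded Dixon's 95% critical value, where chance flags about 1 group in 20. Coq2 in KO replicate 2 was 81.7 CPM, against 62.9 to 65.4 CPM in the other KO libraries. This is the library with high interferon response transcripts, and their part in the value was not tested. Coq8b in WT replicate 3 was 12.6 CPM, against 16.6 to 17.2 CPM in the other WT libraries. This is the library with skeletal muscle transcripts, and their part in the value was not tested.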

How the results depend on the processing

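The number of genes called with 8 libraries was 0 with TMM, 882 with total library size only (858 higher and 24 lower), 1 with no filter, 1113 with DESeq2, 911 with limma-voom and quality weights, 461 with 6 libraries and 249 at an adjusted p under 0.10. Leaving out 1 library gave 0 to 361, the highest without KO replicate 2. Members called were 2, 3 and 1 with DESeq2, quality weights and an adjusted p under 0.10, and 0 with each library left out. Scaling by total library size alone put the median log2 fold change at 0.264 for all genes and at -0.035 for the members, a gap of -0.30, against -0.29 with TMM. There Pdss1 (0.0741), Coq2 (0.1272), Coq8a (0.0867) and Ggps1 (0.0949) turned positive, as did Coq8a without WT replicate 2 (range with 1 library left out -0.2992 to 0.0135). The 6-library count of 461 was 1527 with DESeq2 (2 members), 1530 with total library size only (members' median -0.15), and 0 to 459 with 1 more library left out: 0 without KO replicate 4 or WT replicate 2, 11 without WT replicate 1 and 19 without WT replicate 4. Members called there were 0 to 1. Pdss1 (0.0596), Coq2 (0.0597) and Ggps1 (0.0083) turned positive there with total library size only, as did Pdss1 without KO replicate 1 (range with 1 more library left out -0.3825 to 0.0636). The cause of these shifts was not tested. Of 220 values of single members under the alternatives with 8 libraries, 210 kept direction and side of the threshold. Equal replicate numbers gave no clear sign of pairs: the correlation of same-numbered libraries ranged from -0.13 to 0.224, and only for number 4 was it the best match. So few correlations cannot exclude pairing. With a replicate block 0 genes and 0 members were called and the members' median was -0.31.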
